A study of Homo sapiens with 6 samples.

Results

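The cancer-testis antigen families examined here are the protein-coding genes named MAGEA to MAGEL, GAGE, SSX, XAGE, PAGE and CTAG. A gene entered by its symbol and its biotype in the count table, and 71 of the table's 60671 genes did. Their RNA was compared between a CD38 knockout (CD38 KO) and wild-type (WT) cells of MM.1S, a human multiple myeloma line. CD38 is a surface NAD-hydrolysing glycoprotein that therapeutic antibodies bind on myeloma cells. Each group had 3 libraries. The CD38 KO cells were 1 CRISPR/Cas9 clone of the line, sorted as live cells without surface CD38, and the WT cells were sorted as live cells with it. Both lines carried a green fluorescent protein and a click beetle red luciferase, so these are shared by the groups. With 1 clone, the effect of losing CD38 and other differences of that clone from the WT population cannot be told apart. The replicates were prepared from the sorted populations, and the p-values measure only the spread between them.

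Cancer-testis antigens are proteins of the germ line that tumours can also make, and T cells can recognise their peptides on HLA molecules. In most somatic tissues the promoters of the germline-restricted families are methylated and silent. The MAGE proteins share a common domain through which many bind RING-type ubiquitin ligases. Type I MAGE genes (MAGEA, MAGEB and MAGEC) lie on the X chromosome and are mostly restricted to testis and placenta. Type II MAGE genes (here MAGED, MAGEE, MAGEF, MAGEH and MAGEL) are expressed in many tissues. GAGE, SSX, XAGE, PAGE and CTAG are further X-linked families, CTAG1B being the gene of NY-ESO-1. SSX2IP encodes a centrosomal partner of SSX2 and enters only through its symbol, so it is counted as a member but not as a testis-restricted gene.

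The upstream sequences of MAGEC3 and MAGEB18, the testis-restricted members that fell, are shown with that of MAGEA3 and MAGEA6, a pair that stayed near 0 counts in both groups. Each is the 250 bases before the RefSeq gene start (GRCh38.p14), written 5′ to 3′ on the gene's strand. Capitals mark CpG dinucleotides, the sites of DNA methylation.
MAGEC3 (chrX:141894416-141894665, plus strand): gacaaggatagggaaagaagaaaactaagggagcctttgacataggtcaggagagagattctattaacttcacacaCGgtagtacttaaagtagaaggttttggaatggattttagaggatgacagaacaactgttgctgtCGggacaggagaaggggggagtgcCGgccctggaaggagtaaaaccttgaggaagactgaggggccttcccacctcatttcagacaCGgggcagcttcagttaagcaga
MAGEB18 (chrX:26138093-26138342, plus strand): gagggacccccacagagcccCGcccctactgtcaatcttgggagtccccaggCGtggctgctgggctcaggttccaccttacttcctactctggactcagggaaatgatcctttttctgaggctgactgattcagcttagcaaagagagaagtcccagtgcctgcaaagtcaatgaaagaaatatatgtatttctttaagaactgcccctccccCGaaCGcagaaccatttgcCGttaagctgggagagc
MAGEA3 (chrX:152698544-152698793, plus strand) and MAGEA6 (chrX:152769690-152769939, minus strand): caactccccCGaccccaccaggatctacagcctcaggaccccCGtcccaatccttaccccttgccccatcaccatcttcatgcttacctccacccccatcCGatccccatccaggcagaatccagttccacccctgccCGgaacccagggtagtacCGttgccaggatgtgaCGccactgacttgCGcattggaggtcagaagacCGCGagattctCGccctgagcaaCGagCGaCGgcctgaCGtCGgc

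The MAGEA3 and MAGEA6 windows had 0 mismatches over 250 bases. They held 15 CpGs each, against 4 in the MAGEC3 window and 5 in that of MAGEB18. Of the 71 members, 62 had a window in the RefSeq table, with a median of 8 CpGs (lowest 1, highest 26). All 35116 windows had a median of 11. Other members at 0 counts in every library lay on both sides of the median. The windows of MAGEB1, MAGEB3 and MAGEB4 held 1 CpG each, and that of MAGEB2 held 15. MAGEA1 was among the members without a window, so its CpGs are not given. The motif CCGGAA or TTCCGG (the same site read on either strand, a core letter string of ETS factor sites) was in 4 of the 62 member windows, those of MAGEA3, MAGEA6, MAGEB6 and MAGEF1. It was in 14.5% of all windows. The windows of MAGEC3 and MAGEB18 did not hold these letters. The MAGEC3 gene of GENCODE 29 begins upstream of the RefSeq start, at position 141838316, so other starts of this gene are not shown.

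The sequencing depth was similar in all libraries, at 61515519 to 65709440 counts in CD38 KO and 63606445 to 72335496 counts in WT. CD38 itself was at 0.972 ± 0.322 CPM in CD38 KO and 40.6 ± 1.90 CPM in WT (SD, n = 3 each), where CPM is the count scaled for library depth with TMM factors. For counting error only, a gene with no reads could still be present at 3 counts per library, a mean of 0.0486 CPM in CD38 KO and 0.0438 CPM in WT. Mitochondrially encoded RNA took 6.83% to 7.30% of the counts in CD38 KO and 2.63% to 2.71% in WT. Of 20120 genes tested, 8934 passed an edgeR adjusted p of 0.05: 4592 rose in CD38 KO and 4342 fell. Scaled by library size only, 3632 rose and 5570 fell, and the median log2 fold change over all genes moved by -0.08.
Of 10 plasma cell markers 9 were tested, 5 of which rose and 2 fell. The background for these and the other marker counts was 22.8% higher and 21.6% lower over all tested genes. Of 13180 protein-coding genes tested, as all these markers are, 3742 rose and 3687 fell. JCHAIN, XBP1, TNFRSF17, PRDM1 and IRF4 rose, with log2 fold changes of 1.05, 0.75, 0.65, 0.23 and 0.18, and SLAMF7 and MZB1 fell, with -0.37 and -0.22. SDC1 (CD138) was not called, at 1235 CPM in CD38 KO and 1204 CPM in WT, and CD27 was near 0, with 28 counts in CD38 KO and 11 in WT. The 10 markers together stood at 9631 to 9672 CPM in CD38 KO and 7676 to 7730 CPM in WT. Of 15 markers of T, NK and myeloid cells, 6 were tested. CD3E rose, and NCAM1 and ITGAM fell. All 17 alternatives kept the calls of CD3E, at log2 fold changes of 2.22 to 2.34, and of ITGAM, at -2.29 to -2.05. Among the untested markers, CD3D (2 counts in CD38 KO and 2 in WT) and CD14 (8 and 11) were near 0. Others were CD8A (12 and 21), CD68 (4 and 20), NKG7 (0 and 11) and LYZ (5 and 1). No untested marker of these cells exceeded 15 counts in a library. The call of NCAM1 was lost without CD38 KO replicate 3 (edgeR adjusted p = 0.0603) or WT replicate 1 (0.0502), and the alternatives spanned 0.000229 to 1. Of 7 markers of mature B cells 3 were tested, CR2 and CD79B fell and CD79A rose, and the summed level was 41.7 to 42.2 CPM in CD38 KO and 75.8 to 81.4 CPM in WT. The call of CD79A was lost without CD38 KO replicate 3 (edgeR adjusted p = 0.159), WT replicate 1 (0.127) or WT replicate 3 (0.0795), and the alternatives spanned 0.0205 to 0.648. MS4A1 and PAX5 had at most 4 counts in a group. These values move with the groups for some markers, and their part in the results on cancer-testis genes was not tested.

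Most members had almost no reads in either group. Of the 71, 29 had 0 counts in all 6 libraries and 56 had fewer than 10 counts over all 6. Only 11 passed the filter on low counts and were tested, and no untested member exceeded 13 counts in a library. Of these 11, 5 were called changed (background 44.4% of all tested genes), 1 higher (22.8%) and 4 lower (21.6%) in CD38 KO. For 7 of the 11 every CD38 KO library lay on one side of every WT library (background 52.5%). These backgrounds include noncoding genes, while all members are protein-coding. Of 13180 protein-coding genes tested, 3742 rose and 3687 fell, and for 8291 the groups did not overlap. With library size as the only scaling, 1 member rose and 6 fell, MAGEA1 and SSX2IP being added. With mitochondrially encoded genes left out of the fit, 1 member rose and 5 fell, SSX2IP being added; the part of the mitochondrial share in the other results was not tested. The called members were MAGED1, which rose, and MAGEC3, MAGEB18, MAGED2 and MAGEE1, which fell. MAGEC3 alone was called at least 4-fold lower (background 1.81%). The median log2 fold change of the 11 was -0.06, and that of all tested genes was 0.00.

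**Figure D1:**
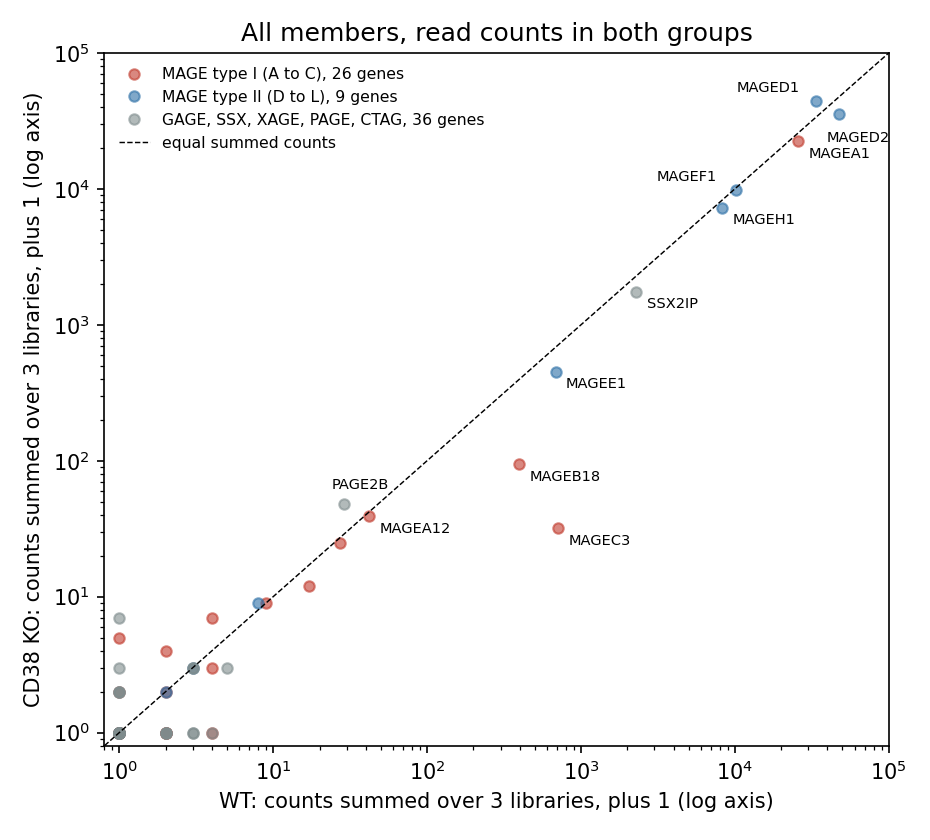
Read counts of all 71 members, each summed over the 3 libraries of a group with 1 added, on log axes: WT across, CD38 KO upward, with a dashed line of equal counts. Most members sit at the lower left with few or no reads, MAGEC3 and MAGEB18 lie below the line, and MAGEA1 is the one testis-restricted gene among the abundant members.

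Among the 61 testis-restricted members, reads came almost wholly from MAGEA1, the gene of a melanoma antigen seen by cytotoxic T cells. MAGEA1 (ENSG00000198681; chromosome X, 153179285 to 153183880, GENCODE 29) held counts of 7640, 7674 and 7049 in CD38 KO, against 9299, 8137 and 8443 in the WT libraries. This was 119.5, 129.0 and 113.8 CPM in CD38 KO, against 125.6, 122.8 and 128.6 CPM in WT. The groups overlapped, and the means were 121 ± 7.65 CPM in CD38 KO and 126 ± 2.87 CPM in WT (SD, n = 3 each). The log2 fold change was -0.06 ± 0.0477 (SE; edgeR adjusted p = 0.357). With library size as the only scaling it was -0.14 (edgeR adjusted p = 0.0158), past the threshold; the alternatives spanned adjusted p of 0.0158 to 1.
MAGEA1 made up 98.7% ± 0.0944 of the testis-restricted counts in CD38 KO and 95.4% ± 0.311 in WT (SD, n = 3 each). Per kilobase of exon it stood at 70.6 CPM in CD38 KO and 73.5 CPM in WT, close to the ubiquitous MAGED2 at 64.8 and 78.9 CPM per kilobase. It shared none of its 100-base stretches with transcripts of other genes.

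MAGEC3, a type I gene next to MAGEC1 on the X chromosome, had the largest fold change of the 11 tested members. CD38 KO libraries held 12, 7 and 12 counts, against 292, 202 and 219 in the WT libraries. Every CD38 KO library was far below every WT library. The level was 0.166 ± 0.0423 CPM in CD38 KO, 4.83% of the 3.44 ± 0.458 CPM in WT (SD, n = 3 each). The log2 fold change was -4.35 ± 0.272 (SE; edgeR adjusted p = 2.84e-11). All 17 alternatives kept this call, with log2 fold changes of -4.46 to -4.16. The gene spans 141838316 to 141897832 of chromosome X (GENCODE 29), and none of its 100-base stretches occurs in another gene's transcript.

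MAGEB18, a type I MAGE known to bind the ubiquitin ligase LNX1, fell as well. CD38 KO libraries held 36, 23 and 34 counts, against 141, 149 and 107 in the WT libraries, and the groups did not overlap. The level was 0.50 ± 0.0981 CPM in CD38 KO and 1.93 ± 0.311 CPM in WT (SD, n = 3 each). The log2 fold change was -1.94 ± 0.265 (SE; edgeR adjusted p = 3.39e-06), and all 17 alternatives kept the call, at -2.05 to -1.79. LNX1, its ligase partner, was not called, with a log2 fold change of 0.24 (edgeR adjusted p = 0.358).
Apart from MAGEA1, MAGEC3 and MAGEB18 gave most of the testis-restricted reads in WT. The 60 genes other than MAGEA1 summed to 104, 90 and 92 counts in CD38 KO, against 483, 398 and 381 in WT. With MAGEC3 and MAGEB18 also set aside, the other 58 summed to 56, 60 and 46 counts in CD38 KO, against 50, 47 and 55 in WT. That remainder overlapped between the groups, at 0.876 ± 0.133 CPM in CD38 KO and 0.741 ± 0.0854 CPM in WT (SD, n = 3 each).

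Both other tested testis-restricted members were low and not called. MAGEA12, from the MAGEA cluster of the X chromosome, had 14, 10 and 14 counts in CD38 KO, against 12, 14 and 15 in WT (log2 fold change 0.03 ± 0.512, SE; edgeR adjusted p = 0.970). PAGE2B, a member of the prostate-associated PAGE family, had 15, 30 and 2 counts in CD38 KO, against 12, 6 and 10 in WT (log2 fold change 0.91 ± 0.684, SE; edgeR adjusted p = 0.309). Its CD38 KO libraries lay both above and below all of WT. Without CD38 KO replicate 2, which held the 30 counts, its log2 fold change was -0.0090.

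Several other antigens of these families, some of them used as vaccine or T cell targets, were at or near 0 in both groups, unlike MAGEA1. CTAG1B (NY-ESO-1) had 1, 1 and 0 counts in CD38 KO and 0 in each WT library, and its copy CTAG1A had 1 count in all. MAGEA3 had 6, 0 and 2 counts in CD38 KO, against 3, 1 and 4 in WT, and MAGEA6 had 0 in all 6 libraries. MAGEA4 had 6 counts in CD38 KO and 3 in WT, each from 1 library. MAGEC1 had 0 in CD38 KO and 3 in WT, and MAGEC2, a partner of the corepressor TRIM28, had 0 in CD38 KO and 1 in WT. The 13 GAGE genes held 0 counts in CD38 KO and 1 in WT, and the 5 XAGE genes 3 and 3. These differences were not detectable at this depth.

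Near-identical copies limit what the low counts of some members show. Of the 71, 25 shared at least 50% of their 100-base stretches with other genes in GENCODE 29 transcripts, and none of these was tested. The median share was 95.7% for GAGE, 84.9% for CTAG, 37.2% for SSX and 22.4% for MAGEA. The SSX median includes SSX2IP, which shared 0%, and is lower than it would be without that gene. Whether reads that match several copies were counted is not given in the sources used here. When near-identical copies were summed, MAGEA2 with MAGEA2B gave 25 counts in CD38 KO and 26 in WT. MAGEA3 with MAGEA6 gave 8 and 8, and CTAG1A with CTAG1B 3 and 0. Another 22 untested members shared no stretch of that length with any other gene of that annotation. Shorter matches were not examined. Of these 22, 9 had 0 counts in all 6 libraries and none had more than 6 counts over all 6.

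**Figure D2:**
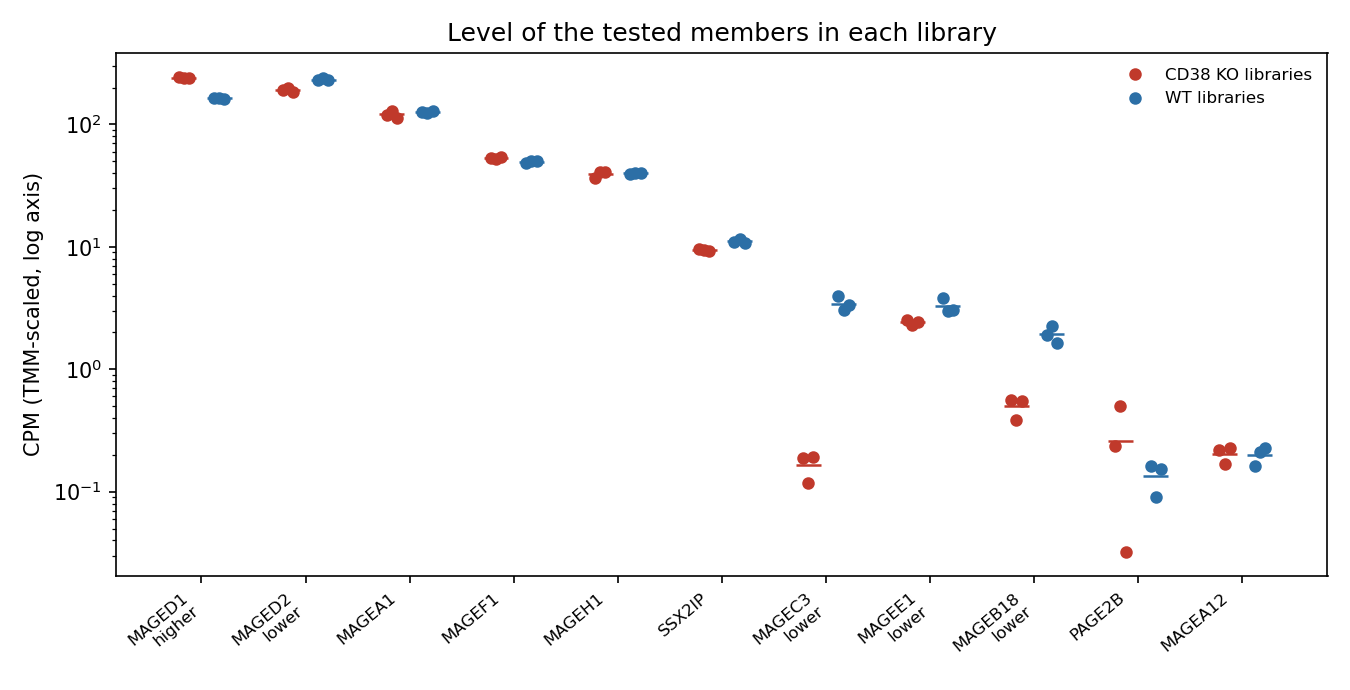
Level of the 11 tested members in each library in CPM on a log axis, ordered by level, with CD38 KO (red) left of WT (blue) and a bar at each group mean (3 libraries a group). Calls at an edgeR adjusted p under 0.05 stand under the gene names. MAGEC3 and MAGEB18 are separated by the widest gaps, while MAGEA1, MAGEH1, MAGEA12 and PAGE2B overlap between the groups.

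Among the type II genes, the related MAGED1 and MAGED2 changed in opposite directions. MAGED1 (chromosome X, 51803007 to 51902357), an adaptor also called NRAGE that binds the p75 neurotrophin receptor, was at 244.9, 240.1 and 238.4 CPM in CD38 KO, against 164.8, 164.1 and 160.2 CPM in WT. Every CD38 KO library exceeded every WT library, and the log2 fold change was 0.56 ± 0.0386 (SE; edgeR adjusted p = 1.21e-10). MAGED2 (chromosome X, 54807599 to 54816012), the gene mutated in a transient antenatal Bartter syndrome, was at 191.0, 197.0 and 183.6 CPM in CD38 KO, against 228.3, 237.5 and 230.2 CPM in WT. Here every CD38 KO library was below WT, and the log2 fold change was -0.28 ± 0.0405 (SE; edgeR adjusted p = 5.95e-06).
A test against a 2-fold change could not call either, because both estimated changes were smaller than 2-fold. Overlapping genes could add reads where the counting ignores strand: AC241520.1 and RNU6-504P overlap MAGED1, and the small nucleolar RNA gene SNORA11 overlaps MAGED2.

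MAGEE1, which encodes a dystrobrevin-binding protein, fell just past the threshold. It was at 2.53, 2.30 and 2.45 CPM in CD38 KO, against 3.85, 2.97 and 3.06 CPM in WT, with no overlap. The log2 fold change was -0.44 ± 0.173 (SE; edgeR adjusted p = 0.0444). The call was lost without CD38 KO replicate 2 (edgeR adjusted p = 0.0988), CD38 KO replicate 3 (0.0948), WT replicate 1 (0.233) or WT replicate 3 (0.0611). It was also lost with no filter on low counts (0.0640), and the alternatives spanned 0.0177 to 1.
MAGEF1, which works with the ubiquitin ligase NSMCE1, was at 52.8, 52.2 and 54.4 CPM in CD38 KO, against 48.1, 49.9 and 50.5 CPM in WT. The groups did not overlap but the test was not passed, at 53.1 ± 1.16 CPM in CD38 KO and 49.5 ± 1.24 CPM in WT (SD, n = 3 each; log2 fold change 0.10, edgeR adjusted p = 0.122). MAGEH1 was at 36.7, 40.6 and 40.8 CPM in CD38 KO, against 39.6, 40.2 and 40.1 CPM in WT. The groups overlapped, with means of 39.4 ± 2.33 CPM in CD38 KO and 39.98 ± 0.316 CPM in WT (SD, n = 3 each; log2 fold change -0.02, edgeR adjusted p = 0.793). The untested MAGED4, MAGED4B, MAGEE2 and MAGEL2 had at most 4 counts in a library, and MAGED4 shared 98.1% of its stretches with other genes, mainly its copy.
SSX2IP was at 9.67, 9.46 and 9.30 CPM in CD38 KO, against 10.9, 11.6 and 10.7 CPM in WT, without overlap. Its log2 fold change was -0.23 ± 0.0944 (SE; edgeR adjusted p = 0.0561), and it passed the threshold with upper-quartile factors (0.0461), library size alone (0.0110), DESeq2 (0.0404) and without mitochondrially encoded genes (0.0471). The alternatives spanned 0.0110 to 1.

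MAGE relatives and ligase partners outside the name rule made a list of 12 genes, of which 11 were tested. Of these 11, 6 fell (background 21.6%) and 1 rose (22.8%). The median of the 11 log2 fold changes was -0.17. All are protein-coding, and of 13180 such genes tested 3687 fell and 3742 rose. NSMCE3 (MAGEG1), the MAGE subunit of the SMC5/6 complex, was at 16.5 ± 0.957 CPM in CD38 KO and 28.2 ± 0.771 CPM in WT (SD, n = 3 each; log2 fold change -0.77, edgeR adjusted p = 2.19e-08). TRO (trophinin, MAGED3), a protein of cell adhesion at implantation, had 28 counts in CD38 KO and 120 in WT over the 3 libraries of each (log2 fold change -1.92, edgeR adjusted p = 0.00189).
The MAGED1 partner PJA1 and the SMC5/6 subunits SMC6 and NSMCE4A fell, with log2 fold changes of -0.31, -0.22 and -0.17, and the deubiquitinase USP7, which acts with MAGEL2 and TRIM27, rose by 0.25. The call of NSMCE4A was lost without CD38 KO replicate 3 (edgeR adjusted p = 0.0636), and the alternatives spanned 0.000308 to 1. TRIM28, the ligase partner of MAGEA3 and MAGEC2, was not called, at 171 CPM in CD38 KO and 167 CPM in WT.

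Of 38 further X-linked cancer-testis genes in the table, 3 passed the filter on low counts and PLAC1, a trophoblast gene, was the one called. It rose to 20.3 ± 1.18 CPM in CD38 KO, against 6.58 ± 0.734 CPM in WT (SD, n = 3 each; log2 fold change 1.62, edgeR adjusted p = 1.75e-11). A further gene of this list was called lower in each of 2 alternatives, PASD1 with no filter on low counts and FATE1 without CD38 KO replicate 1. Of 40 autosomal cancer-testis and germline genes, 16 were tested, 4 rose (background 22.8%) and 4 fell (21.6%), with a median of 0.25. SYCP3, a structural protein of the meiotic synaptonemal complex, was at 4.75 ± 0.620 CPM in CD38 KO and 24.1 ± 2.12 CPM in WT (SD, n = 3 each; log2 fold change -2.34, edgeR adjusted p = 1.54e-13).
CCDC110 and the germ cell ATPase MORC1 also fell, with log2 fold changes of -1.46 and -0.49. PRAME, an antigen of melanoma and other tumours, rose by 0.26, the JNK scaffold SPAG9 by 0.24 and the sperm flagellar protein ROPN1B by 1.02. Of 11 cancer-testis genes known mainly for cell division, 8 rose (background 22.8%) and 1 fell (21.6%), with a median of 0.94. The mitotic kinesin KIF2C, the abscission protein CEP55, the kinase PBK, DEPDC1, the kinetochore protein NUF2 and ECT2, which drives cytokinesis, all rose. KIF2C was at 98.5 ± 2.04 CPM in CD38 KO and 34.7 ± 1.2 CPM in WT (SD, n = 3 each; edgeR adjusted p = 1.3e-15), and the log2 fold changes of the other five, in the order named, were 1.16, 1.30, 1.30, 1.14 and 0.94. ATAD2, a chromatin ATPase, fell by 0.22 on the log2 scale. These genes moved with the groups, and their part in the changes of the members was not tested.

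**Figure D3:**
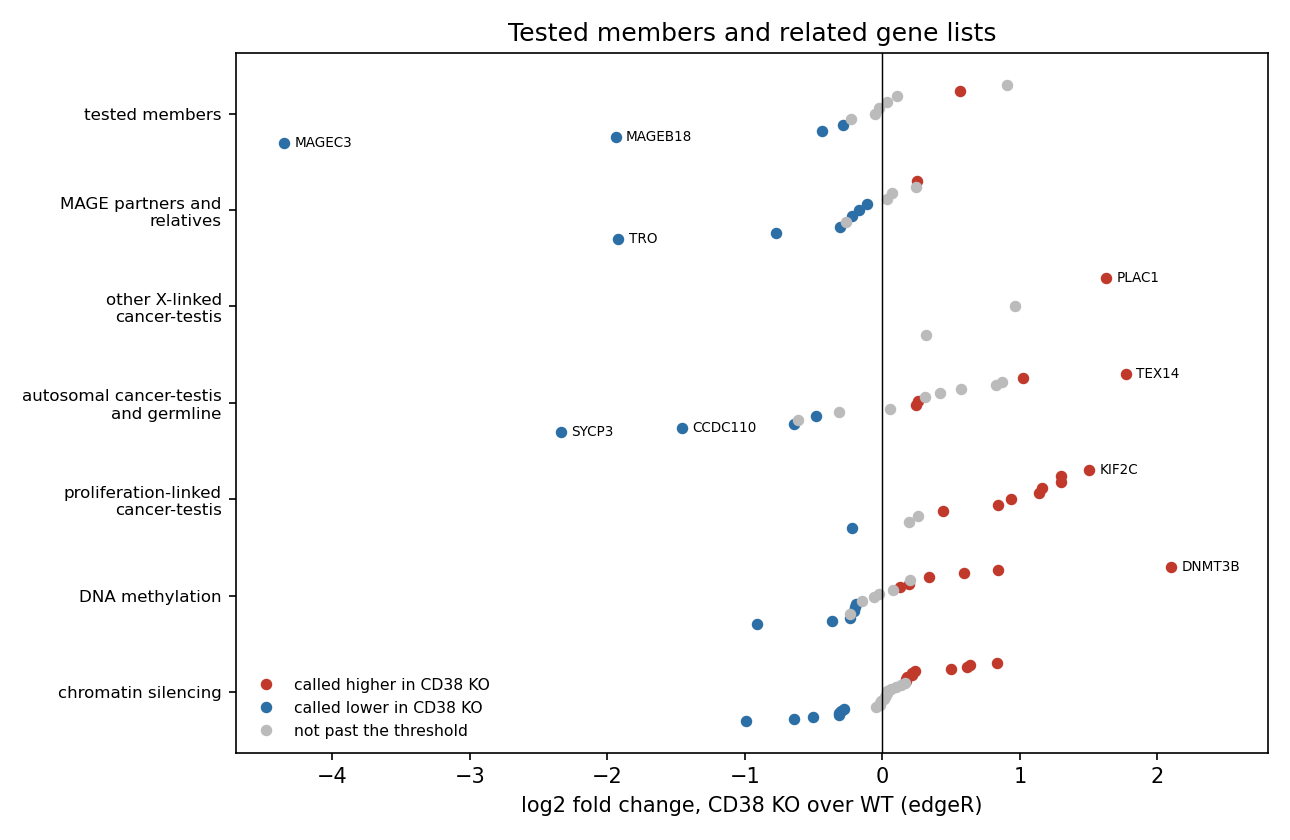
Log2 fold changes of CD38 KO over WT for the 11 tested members and the tested genes of 6 related lists, 1 point a gene, in red where called higher, blue where called lower and grey where not past the threshold. Within the members MAGEC3 and MAGEB18 lie farthest to the left, and the cell division genes lie mostly to the right of 0.

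Genes that write, read or remove DNA methylation changed in both directions. Of 19, 18 were tested, 6 rose (background 22.8%) and 6 fell (21.6%). The median of the 18 log2 fold changes was -0.04. All are protein-coding, and of 13180 such genes tested 3742 rose and 3687 fell. With library size alone 4 rose and 9 fell. DNMT3B, which methylates DNA de novo, was at 8.05 ± 0.880 CPM in CD38 KO and 1.87 ± 0.0250 CPM in WT (SD, n = 3 each; log2 fold change 2.10, edgeR adjusted p = 1.08e-10). UHRF1, which brings DNMT1 to newly copied DNA, was at 38.4 ± 1.56 CPM in CD38 KO and 72.2 ± 5.90 CPM in WT (SD, n = 3 each; log2 fold change -0.91, edgeR adjusted p = 1.04e-10). DNMT3A, named after its values were seen, moved opposite to DNMT3B, at 6.99 ± 0.309 CPM in CD38 KO and 9.03 ± 0.898 CPM in WT (SD, n = 3 each). Its log2 fold change was -0.37 (edgeR adjusted p = 0.00962). The maintenance methyltransferase DNMT1 fell by 0.20 on the log2 scale, and TET1, which oxidises methylcytosine, rose by 0.84. The methyl-CpG binding protein ZBTB4 rose by 0.59 on the log2 scale.
All 30 chromatin silencing factors were tested, of which 10 rose (background 22.8%) and 7 fell (21.6%), with a median of 0.03. With library size alone 6 rose and 7 fell. TASOR and MPHOSPH8, subunits of the HUSH complex, changed in opposite directions, at log2 fold changes of -0.99 and 0.62. ATF7IP, a partner of the histone methyltransferase SETDB1, fell by 0.50, and MGA, which holds together a repressor complex of germline genes, fell by 0.64. The histone demethylases KDM1A and KDM5B rose by 0.64 and 0.83. DNA methylation itself was not measured.

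Position on the X chromosome was examined because 68 of the 71 members lie there. Of 724 other tested X-linked genes, 128 rose and 174 fell (median log2 fold change -0.08). On the other chromosomes, coding and noncoding genes together, 4429 rose (23.2%) and 4135 fell (21.7%) of 19085, with a median of 0.00. Around MAGEC3, the only tested gene whose start lay within 1 Mb was LDOC1, which fell by 0.48 on the log2 scale (edgeR adjusted p = 4.45e-05). Neither of 2 tested genes around MAGEB18 was called.
Over all tested genes, the background for the counts that follow, 22.8% rose and 21.6% fell. Around MAGED1, 11 genes were tested, 2 of which rose (18.2%) and 4 fell (36.4%). GSPT2, a translation termination factor gene 59.6 kb away, rose by 0.25. The 3 noncoding genes LINC01284, AC233976.1 and AL158055.1, at -632, -407 and -406 kb, fell, with log2 fold changes of -3.28, -3.67 and -4.38. Their counts were few, summing to 9, 5 and 6 in CD38 KO, against 99, 76 and 147 in WT. Around MAGED2, 3 of 17 rose (17.6%) and 4 fell (23.5%), near the background. TRO was among those that fell. PAGE2B, MAGEH1 and SNORA11, which overlaps MAGED2 itself, were among those not called. NSMCE3 lies on chromosome 15, where 6 of 15 tested genes within 1 Mb fell and 1 rose.

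**Figure D4:**
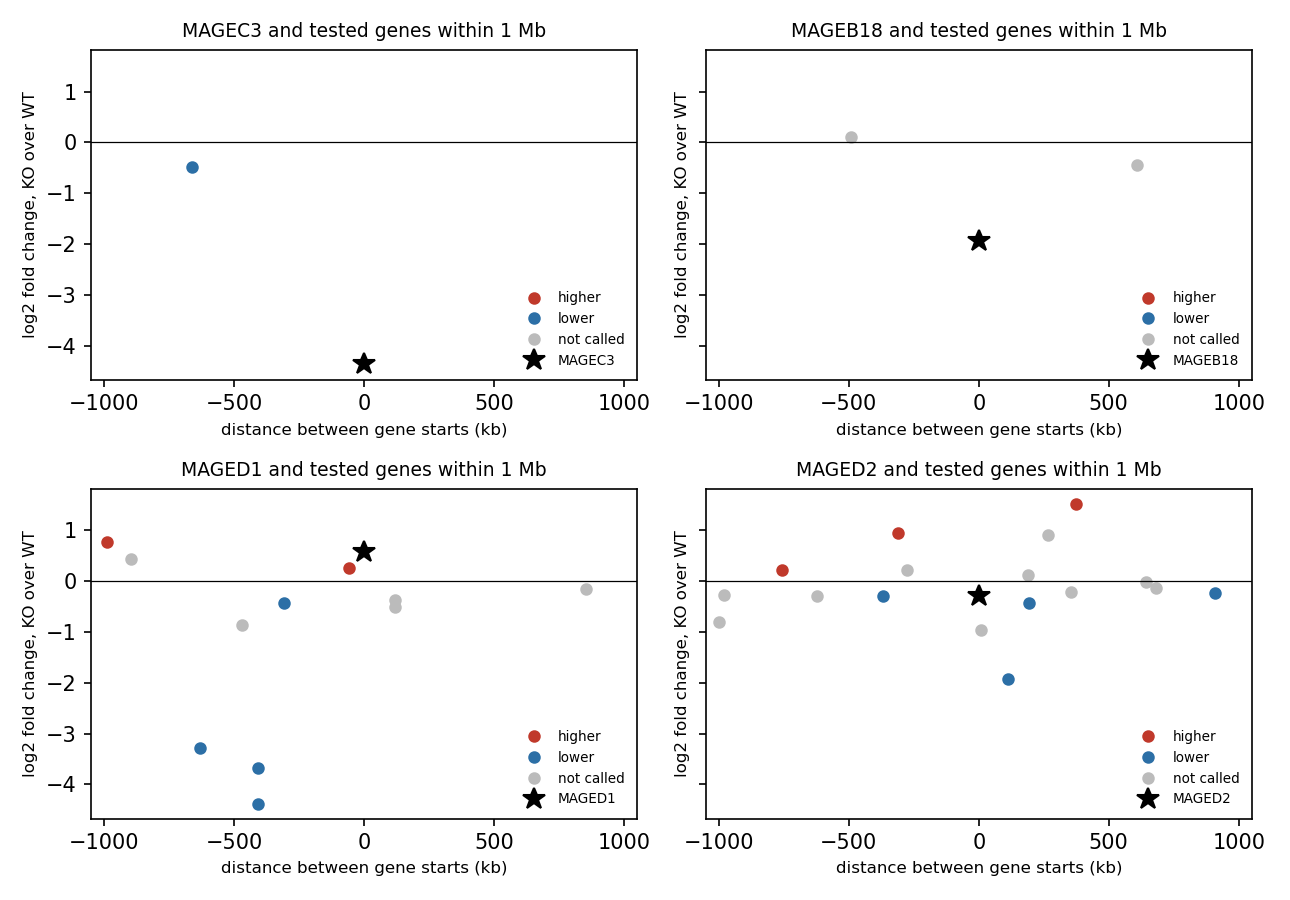
Log2 fold changes of CD38 KO over WT for tested genes within 1 Mb of MAGEC3, MAGEB18, MAGED1 and MAGED2 (star), against the distance between gene starts in kb along the chromosome. Red points were called higher, blue lower and grey not called. The region of MAGEC3 held 1 other tested gene and that of MAGEB18 held 2, while genes around MAGED1 and MAGED2 lay on both sides of 0.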

How the data were processed

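The values are raw counts of reads per gene in a table the authors deposited, a column for each library. Per the labels' protocols, a SMARTer kit for low input amplified 10 ng of total RNA. STAR 2.7.9a, Partek and DESeq2 appear, without roles, in the submitters' processing notes. Build, annotation, counting program and strand setting: not given in the sources used here. Repeated identifiers were kept once (200 of 60871 lines dropped). CD38 KO was compared with WT with edgeR 4.0.16 (R 4.3.3; quasi-likelihood test, TMM factors, filterByExpr, robust dispersions, no covariate). Benjamini-Hochberg adjustment ran over all 20120 tested genes, and an adjusted p under 0.05 was a call. A standard error is the size of the log2 fold change over the root of the F statistic. The procedure was tested on simulated data.

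Positions, exon lengths and shared 100-base stretches came from GENCODE 29 through the Ensembl identifier, and upstream sequences from RefSeq by symbol. Either may differ from the annotation the authors counted with. The members and the related lists (183 genes, 181 matched) were chosen with earlier results of these data known, and the 1 Mb window and the fit without mitochondrially encoded genes after seeing the data. The naming rule took CD38, all tested members and, from each list, up to 6 called genes with the smallest adjusted p or a log2 fold change past 2 either way. A gene that this rule takes is not reported here. Any other gene was named after its values were seen. Alternatives tried: upper-quartile, RLE or library-size scaling, DESeq2 1.42.0, limma-voom (limma 3.58.1), dropping the filter or setting it at 1 CPM in 3 libraries, a replicate block, leaving out each library, a test against a 2-fold change, and near-identical copies summed.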

Additional observations from a re-analysis of the deposited data

How the results depend on the processing

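Across 17 alternatives, MAGEC3 and MAGEB18 kept their calls and direction in each. Against a 2-fold change, edgeR had 1061 genes called changed, and among the members 0 higher and 2 lower. At an unadjusted p under 0.05 it also had 0 higher, where DESeq2 and limma-voom without that threshold called 1 higher. The estimates of MAGED1, MAGED2 and MAGEE1 were smaller than 2-fold, so the test against a 2-fold change could not call them. Leaving out 1 library at a time gave 7767 to 8761 genes called, 1 member higher each time, 3 to 4 members lower, and a CD38 log2 fold change of -5.68 to -5.24. Members not called changed sign in a few settings: MAGEA12 was at -0.050 with library size alone and at -0.11 to 0.15 with 1 library left out, MAGEH1 at -0.045 to 0.028 and PAGE2B at -0.0090 to 1.44 with 1 library left out. The cause was not tested. Replicate numbers did not pair the libraries: same-numbered libraries had correlated deviations of 0.0337, -0.008 and -0.0207 across genes, and with the replicate block 8918 genes were called changed, 1 member higher and 3 lower, the call of MAGEE1 (edgeR adjusted p = 0.0556) being lost. Of 185 recomputed member results, 165 kept direction and side of the threshold, 9 lost the call, 5 gained it and 6 changed sign. Of 729 for named genes of the lists, 691 kept both and 38 lost the call. Genes of few counts mostly stayed under the filter, and with no filter 42110 genes were tested.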

Other observations

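Some cancer-testis genes of the related lists, named after their values were seen, had too few reads to pass the filter, and were tested in some alternatives only. PASD1, an X-linked antigen of haematological cancers, had 1 count over the CD38 KO libraries and 27 over the WT libraries, and with no filter on low counts it was called lower (edgeR adjusted p = 0.0109). HORMAD1, a protein of meiotic chromosome axes, had 2 counts in CD38 KO and 29 in WT, of which 27 came from WT replicate 3. With no filter it was called lower (edgeR adjusted p = 0.0163). FATE1 had 10 counts in CD38 KO and 32 in WT. It was not called with no filter (edgeR adjusted p = 0.270) and was called lower without CD38 KO replicate 1, which held 8 of the 10 counts (0.0312). DDX43 had 27 counts in CD38 KO and 9 in WT and was not called with no filter (edgeR adjusted p = 0.264). CTCFL (BORIS), a germline relative of CTCF, had 18 and 17. The 9 genes with a family symbol that were not protein-coding, mostly pseudogenes, held 17 counts in CD38 KO and 16 in WT, of which MAGEA5 had 14 and 14.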
